A study of Mus musculus with 7 samples.

Results

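Mature oligodendrocytes (MOLs) of the posterolateral cortical amygdala (plCoA) were taken from single-nucleus RNA sequencing of this olfactory region, dissected into an anterior (aplCoA) and a posterior (pplCoA) domain. They were selected on their counts of unique molecular identifiers (UMIs), each UMI standing for 1 captured RNA molecule. A nucleus was a barcode with at least 1000 genes and at most 30000 UMIs, and it was called a MOL if it held at least 4 UMIs of Mog and Mobp together with both genes present, at most 1 UMI of Enpp6 and Pdgfra, and at most 1 UMI of Slc17a7, Slc17a6, Gad1 and Gad2. Of 51115 nuclei, 1114 were MOLs. All mice were 8-week-old C57BL6J males with no transgene or treatment named in the labels, and each library held sorted nuclei from the pooled tissue of several mice. The study's methods state that the mice were housed alone and kept under sensory deprivation before death, to lower the expression of immediate early genes. The domains had 3 replicates each, with counts of both libraries of aplCoA replicate 1 added together. As each replicate was a pool, the spread between replicates is a spread between pools and not between single animals.

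Oligodendrocytes arise from precursors (OPCs) that express the growth factor receptor Pdgfra. On leaving the cell cycle they pass through a newly formed stage (NFOL), marked by the phosphodiesterase Enpp6, and then wrap axons in myelin, a stack of lipid-rich membrane held together by proteins such as myelin basic protein. Mog and Mobp encode proteins of compact or outermost myelin that appear late in this sequence. Mature cells also support the axons they wrap, by handing over metabolites and by buffering potassium, and they hold much of the iron of the brain.

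The selected nuclei carried Prr5l, a further marker of MOLs that the rule did not use. Levels are given as CPM, the UMIs of a gene scaled to 1e6 UMIs of the class in a replicate, averaged over replicates. A Prr5l UMI was found in 1049 of 1114 MOLs, or 94.2%. Prr5l stood at 1506 ± 207 CPM (SD, n = 6 replicates) in MOLs, at 155 CPM in NFOLs, 30.7 CPM in astrocytes and 3.15 CPM in OPCs. The median MOL held 7 UMIs of Mog and Mobp. Just inside the limit, 149 MOLs held exactly 4 UMIs, and summed they had 1782 CPM of Prr5l, 3637 CPM of Mbp and 2642 CPM of the transcription factor gene St18. Just outside it, 119 nuclei that met the other conditions held 3 UMIs, with 1761 CPM of Prr5l, 3330 CPM of Mbp and 2202 CPM of St18. The levels of these genes on either side of the limit were close. The other conditions removed 55 nuclei for Enpp6 or Pdgfra and 72 for the 4 neuronal genes, out of 1240 with enough Mog and Mobp.

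MOLs were shallow nuclei. Their median was 3323 UMIs and 1498.5 genes, where the median of all nuclei was 6367 UMIs. Libraries held between 50812605 and 129624583 UMIs in all, of which the MOLs of a replicate supplied between 170579 UMIs, in pplCoA replicate 3, and 1371415 UMIs, in aplCoA replicate 1. Between 5 and 36 barcodes were shared by any pair of libraries, 22 of them by both libraries of aplCoA replicate 1, and 2 MOLs carried a barcode of a MOL in another library. The libraries of aplCoA replicate 1 stood apart from each other in the genes compared between domains, and the values of both are given with that comparison.

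MOLs were counted first by domain. Replicates 1, 2 and 3 of aplCoA held 337, 161 and 248 MOLs, and those of pplCoA held 247, 75 and 46. These were 2.13%, 3.84% and 2.44% of all nuclei in aplCoA and 2.55%, 1.32% and 0.830% in pplCoA. The domains overlapped, as pplCoA replicate 1 lay above 2 of the 3 aplCoA replicates. The means were 2.80 ± 0.913% and 1.57 ± 0.885% (SD, n = 3 each), a difference that did not pass the test (two-sided exact permutation test, p = 0.3; no design of 3 against 3 can give less than 0.1). The difference of 1.24 percentage points was 0.720 without aplCoA replicate 2. Wilson 95% intervals, which cover counting error only, reached from 3.30% to 4.47% in aplCoA replicate 2 and from 0.623% to 1.11% in pplCoA replicate 3.

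**Figure D1:**
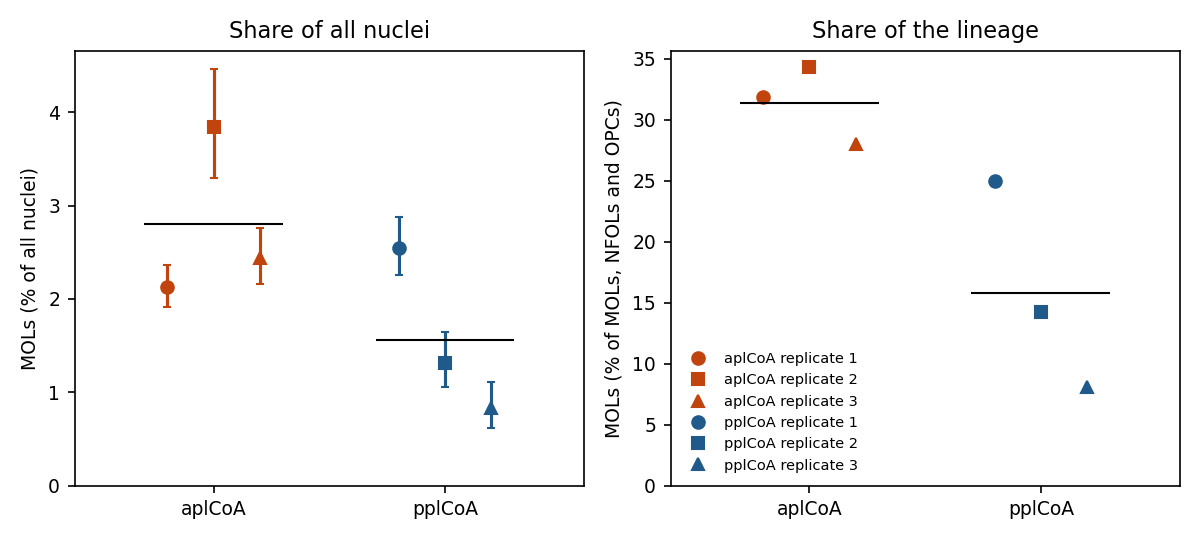
MOLs as a percentage of all nuclei (left, with Wilson 95% intervals) and of MOLs, NFOLs and OPCs together (right), 1 point per replicate, with a black line at each domain's mean. In the left panel pplCoA replicate 1, at 2.55%, lies among the aplCoA replicates. In the right panel the 3 aplCoA replicates, from 28.0% to 34.3%, lie above the 3 pplCoA replicates, from 8.10% to 24.9%.

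Within the oligodendrocyte lineage the domains were further apart. MOLs made up 31.9%, 34.3% and 28.0% of the MOLs, NFOLs and OPCs of aplCoA and 24.9%, 14.3% and 8.10% of those of pplCoA. The domains did not overlap, but pplCoA replicate 1 was nearer to the aplCoA replicates than to pplCoA replicate 3. The means were 31.4 ± 3.21% and 15.8 ± 8.53% (SD, n = 3 each; two-sided exact permutation p = 0.1). Over all replicates the gates held 3047 OPCs and 337 NFOLs. The share is over nuclei that passed the gates, and 20436 nuclei of all classes fell in no gate or in more than 1. MOL depth moved with the domain: the median MOL of the aplCoA replicates held 3388, 3611 and 3258.5 UMIs, and that of the pplCoA replicates 3245, 3193 and 3028.5 UMIs (two-sided exact permutation p = 0.1). The difference of 264 UMIs fell to 168 without aplCoA replicate 2, and to 77.0 (exact permutation p = 0.8) where a MOL needed at least 8 UMIs of Mog and Mobp. With Scrublet doublets removed or a floor of 500 genes it was 202 or 350.2 UMIs (exact permutation p = 0.3 each).

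Compared with the other classes, MOLs had their largest ratios in myelin genes such as Mal, Opalin and Ermn and in genes of other roles. As the nuclei were chosen by measured values, this comparison is a description with no test. Of 3110 genes with at least 50 CPM in MOLs, 696 were higher in MOLs than in each of the 7 other gated classes, 94 at least 4-fold and 18 at least 10-fold. In 319 genes the lowest MOL replicate lay above every replicate of every other class. The class with the next highest level was NFOL for each of the 20 genes with the largest ratio. The NFOL gate required over 1 UMI of Enpp6 and set no limit on Mog and Mobp. Gates of the remaining classes allowed at most 1 UMI of Mog and Mobp together. How far the gates set this rank was not tested.

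**Figure D2:**
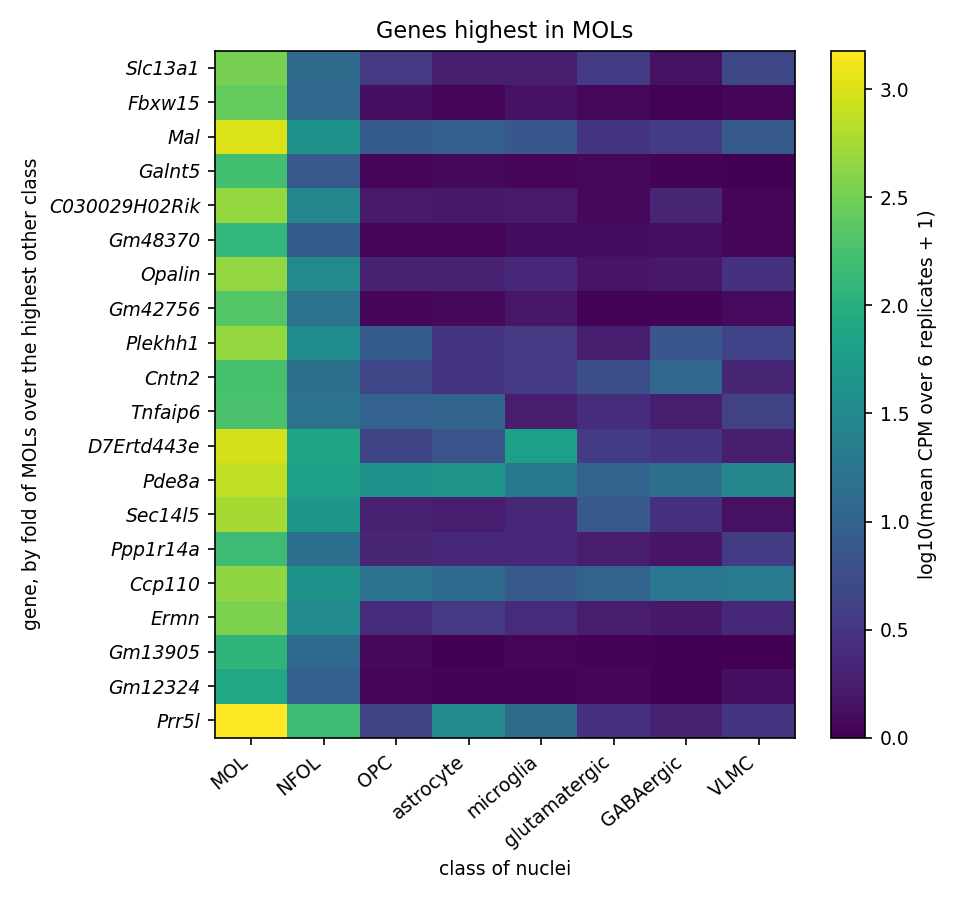
Mean level over 6 replicates, as log10(CPM + 1), of the 20 genes with the largest ratio of MOLs over the highest other class, in 8 classes of nuclei. The MOL column is the brightest in every row and the NFOL column the next; Slc13a1, at the top, stood at 333 CPM in MOLs and 11.7 CPM in NFOLs.

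Slc13a1, a sodium-sulfate cotransporter gene, had the largest ratio, 28.4-fold over NFOLs, with 233, 322 and 256 CPM in the MOLs of aplCoA and 341, 446 and 399 CPM in those of pplCoA. Mal, whose protein sorts membrane for myelin, stood at 1028 ± 252 CPM in MOLs, 24.2-fold over NFOLs. Opalin, a myelin glycoprotein of the paranodal loops, stood at 453 ± 47.9 CPM, 14.3-fold over NFOLs. Ermn, which encodes the cytoskeletal protein ermin of the outer and inner tongue of myelin, stood at 351 ± 42.4 CPM, 10.7-fold over NFOLs. These myelin genes were seen in most MOLs, Mal in 88.5% of them, Opalin in 70.2% and Ermn in 69.5%.

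Other members of the 20 have roles outside the myelin sheath itself. Cntn2, an adhesion molecule of the juxtaparanode, stood at 179 ± 29.7 CPM and 13-fold over NFOLs. Pde8a, a phosphodiesterase that degrades cyclic AMP, stood at 747 ± 114 CPM and 12.0-fold, and Ppp1r14a, an inhibitor of myosin phosphatase, at 150 ± 37.5 CPM and 11.0-fold. Ccp110, which encodes a protein that caps centrioles, stood at 443 ± 90.4 CPM and 10.8-fold. Galnt5, Fbxw15, Plekhh1, Tnfaip6 and Sec14l5 were also among the 20, at 23.9-fold, 25.6-fold, 13.8-fold, 12.7-fold and 11.8-fold over NFOLs. The remaining members, apart from Prr5l, were transcripts known by a clone or predicted gene name, of which D7Ertd443e was seen in 90.6% of MOLs and C030029H02Rik in 74.9%.

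Gene lists of oligodendrocyte function differed in how far they were restricted to MOLs. Of all 6184 genes with at least 20 CPM in MOLs, Mog and Mobp left out because they defined the gate, 1034 (16.7%) were higher in MOLs than in any other class. Of 25 such myelin protein genes 20 were, and in 13 of the 25 the lowest MOL replicate lay above all replicates of the other classes, against 371 of all 6184 genes. Mag, the adhesion molecule that faces the axon, stood at 863 ± 117 CPM in MOLs, 439 CPM in NFOLs and 3.23 CPM in OPCs. Mbp, in contrast, had nearly the same level in NFOLs as in MOLs, at 4837 CPM against 5434 ± 724 CPM, and 44.4 CPM in OPCs. As stated above, the NFOL gate set no limit on Mog and Mobp, unlike the OPC gate.

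Of 13 transcription factors of the lineage with at least 20 CPM, 4 (30.8%) were higher in MOLs than in any other class, against the 16.7% of all genes. Sox10, which is needed throughout the lineage, stood at 255 ± 42.4 CPM in MOLs, 434 CPM in NFOLs and 323 CPM in OPCs. Myrf, the membrane-bound factor that switches on myelin genes, was level between MOLs and NFOLs, at 141 ± 14.5 CPM and 150 CPM, and far lower in OPCs, at 11.1 CPM. Olig1 was highest in OPCs, at 264 CPM, against 133 ± 34.1 CPM in MOLs. Zfp536, a zinc finger repressor, was higher in MOLs, at 2245 ± 279 CPM, than in NFOLs, at 677 CPM.

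Enzymes of myelin lipids were highest in MOLs in 10 of 17 genes, and enzymes of cholesterol synthesis in 3 of 11. Aspa, the aspartoacylase that frees acetate from N-acetylaspartate, stood at 1083 ± 133 CPM in MOLs, 88.1 CPM in NFOLs and 16.1 CPM in OPCs. Ugt8a, the enzyme that makes galactosylceramide, stood at 712 ± 90.3 CPM in MOLs and 346 CPM in NFOLs, and Fa2h, which hydroxylates the fatty acids of that lipid, at 605 ± 80.1 CPM and 439 CPM. Msmo1 of cholesterol synthesis was highest in astrocytes, at 207 CPM, and stood at 72.2 CPM in both MOLs and NFOLs.

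Of 16 ion transport genes 7 were highest in MOLs, and of 11 genes of energy supply and iron 4 were. Slc24a2, a potassium-dependent sodium-calcium exchanger gene, stood at 4015 ± 376 CPM in MOLs and 710 CPM in NFOLs. Car2, carbonic anhydrase 2, stood at 959 ± 170 CPM in MOLs, with 130 CPM in astrocytes as the next class, and Kcna1, a voltage-gated potassium channel gene, at 250 ± 48.4 CPM, with 59.9 CPM in GABAergic neurons as the next. Trf, the iron carrier transferrin, stood at 915 ± 172 CPM in MOLs and 148 CPM in microglia. Of 23 axon contact and gap junction genes, 6 were highest in MOLs. Nfasc, whose glial form joins the myelin loops to the axon, was 1144 ± 276 CPM in MOLs and 4199 CPM in NFOLs, and the gap junction gene Gjc3 was 862 ± 82.3 CPM and 1366 CPM. None of the 17 reactive oligodendrocyte genes, such as Serpina3n and C4b, reached 20 CPM in MOLs, a level that 6186 of all 32285 genes reached.

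MOLs varied among themselves within each replicate. Variation was measured as the variance of Pearson residuals. For a gene that varies no more than counting error around a common share it is about 1. It is lower for abundant genes such as Malat1, as the residuals allow for extra spread at high counts. Among the 100 most variable genes in all 6 replicates were 23 genes. Ptgds, prostaglandin D2 synthase, led them with a mean of 13.4, from 6.23 to 24.3 over the replicates. Its level was 4178 ± 1470 CPM in MOLs, 30238 CPM in vascular leptomeningeal cells and 3676 CPM in empty droplets (barcodes with under 100 UMIs, which hold free RNA). The part of free RNA in its variation was not tested.

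Next were the transmembrane protein gene Tmeff2 at 7.44, the adhesion gene Kirrel3 at 7.11, Pex5l, which encodes a relative of a peroxisomal import receptor, at 6.99 and the nuclear noncoding RNA Malat1 at 6.93. Malat1 made up 215689 ± 15712 CPM of MOLs and 139432 CPM of astrocytes, the next class. Kirrel3 was seen in 72.9% of MOLs and Grm7, a metabotropic glutamate receptor gene with a variance of 5.75, in 61.5%. Both were higher in another class. Kirrel3 stood at 1673 CPM in MOLs and 1839 CPM in astrocytes, and Grm7 at 716 CPM in MOLs and 2455 CPM in glutamatergic neurons. The part of other cells or free RNA in their variation was not tested. Other genes by the same rule were Pcdh9, Magi2, Mast4, Mbp, Nkain2, 4930419G24Rik, Pcdh7 and Pde4b, from 5.83 down to 4.21. Pcdh7, a protocadherin gene, was seen in 39.7% of MOLs and was higher in NFOLs, at 2904 CPM, than in MOLs, at 597 CPM.

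Genes that are known to separate subtypes of mature oligodendrocytes were compared after thinning every MOL to 1500 UMIs, which left out no MOL and 31 microglia. Shares are of MOLs with at least 1 UMI, and the same share in microglia, thinned alike, stands beside them as background. Before thinning the median depths were 3323 UMIs in MOLs and 3374 UMIs in microglia. Opalin was seen in 45.6%, 52.1% and 48.0% of the MOLs of aplCoA and in 40.9%, 42.5% and 40.1% of those of pplCoA, against 0.287% of microglia. Apod, a lipocalin that carries lipids, was seen in 44.5%, 61.0% and 47.1% in aplCoA and in 38.5%, 29.1% and 34.0% in pplCoA, against 1.96% of microglia. Neither gene overlapped between domains.

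**Figure D3:**
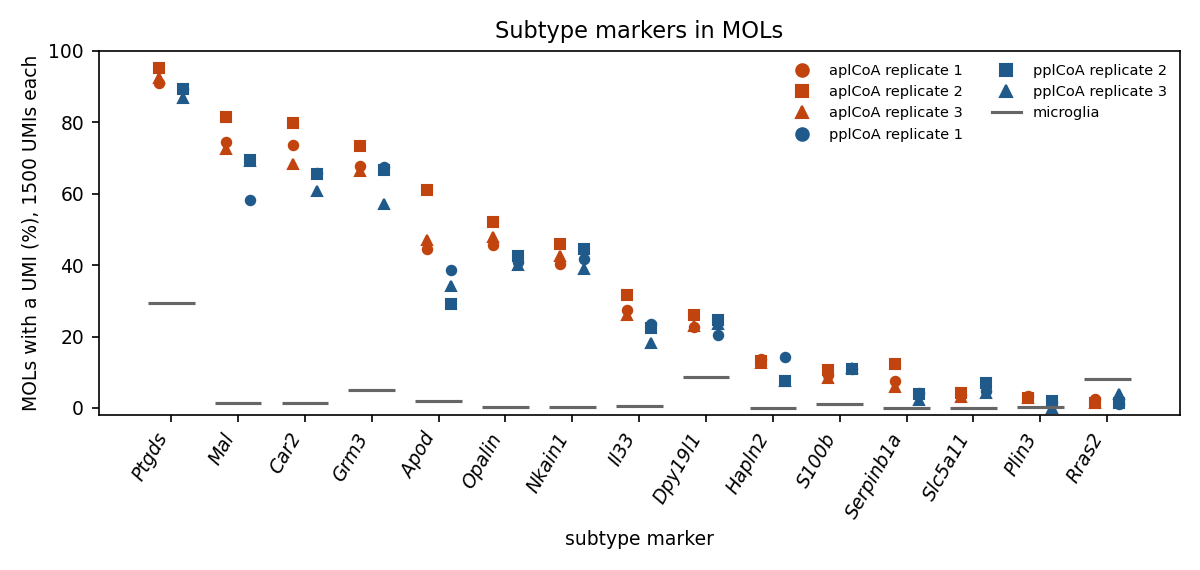
Share of MOLs with at least 1 UMI of each subtype gene, with every nucleus thinned to 1500 UMIs, 1 point per replicate; gray lines give microglia. Apod shows the widest gap between domains, with means of 50.9% and 33.9%, and the gray line of Ptgds, at 29.4%, is far above those of the other genes.

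The gap in Apod was the largest, with means of 50.9 ± 8.90% and 33.9 ± 4.71% (SD, n = 3 each). Mal was seen in 76.1 ± 4.70% of MOLs in aplCoA and 65.5 ± 6.38% in pplCoA, Car2 in 73.9 ± 5.63% and 64.0 ± 2.82%, and Il33, the alarmin interleukin 33, in 28.3 ± 2.91% and 21.3 ± 2.77%. Serpinb1a, a protease inhibitor gene, was rarer, at 8.63 ± 3.38% and 3.47 ± 1.13%. Going the other way, the sodium cotransporter gene Slc5a11 was seen in 3.59 ± 0.533% in aplCoA and 5.32 ± 1.42% in pplCoA, and S100b in 9.40 ± 1.15% and 11.0 ± 0.216%. Single replicates moved some of these differences by over 1.5 times: Serpinb1a fell from 5.17 to 3.27 percentage points without aplCoA replicate 2, Mal from 10.5 to 6.86 without pplCoA replicate 1, Slc5a11 went from -1.73 to -0.924 without pplCoA replicate 2, and S100b from -1.55 to -0.989 without aplCoA replicate 3.

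For these genes, and for Opalin, Ptgds and Plin3, the domains did not overlap, and each gave p = 0.1, the smallest that the exact permutation test of 3 against 3 allows, with no adjustment for the number of genes. After the same thinning 16.7% of the 5157 genes seen in at least 10% of the MOLs of either domain had no overlap between domains. Plin3, seen in 2.98 ± 0.344% and 1.25 ± 1.09%, differed by 1.74 points, and by 1.11 without pplCoA replicate 3. Without thinning S100b overlapped, at 20.0% and 21.2% (two-sided exact permutation p = 0.4). Grm3, Hapln2, Nkain1, Dpy19l1 and Rras2 overlapped between domains. Klk6, Hopx, Anxa5 and Egr2 were each seen in under 1% of the thinned MOLs of either domain. Anxa5 and Egr2 lay below their microglial shares. Hopx reached 0.435% of MOLs in aplCoA replicate 2, 0.992% in pplCoA replicate 1 and 1.30% in pplCoA replicate 3, against 0.183% of microglia, and its domains overlapped. Klk6 reached at most 0.208%, in aplCoA replicate 1. Ptgds stood at 92.8 ± 2.12% and 88.4 ± 1.37%, but also at 29.4% in microglia.

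The comparison of gene expression between aplCoA and pplCoA found few genes in MOLs. Counts were summed over the MOLs of a replicate, and of 5157 genes seen in at least 10% of the MOLs of either domain, 16 (0.310%) differed at an adjusted p below 0.05 by the quasi-likelihood test of edgeR. Of these, 13 (0.252%) were higher in aplCoA and 3 (0.0582%) lower. Outside mitochondrial, ribosomal and oxidative phosphorylation genes, 9 were higher and 3 lower, together 0.240% of the 5009 such genes tested. They were Cryab, Eif1, Rnf7, Fth1, Ubb, Tmsb4x, Ppia, Ptma and Gm42418, higher in aplCoA, and Gm10538, Gm26936 and 4932443L11Rik, lower. An adjusted p below 0.01 together with a change of at least 1.5-fold was met by 1 gene (0.0194%), Cryab, in this test. By the likelihood ratio test of edgeR, which the study's methods name for domains, 134 genes (2.60%) were called at an adjusted p below 0.05 and 45 (0.873%) by the stricter rule, 36 higher and 9 lower.

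**Figure D4:**
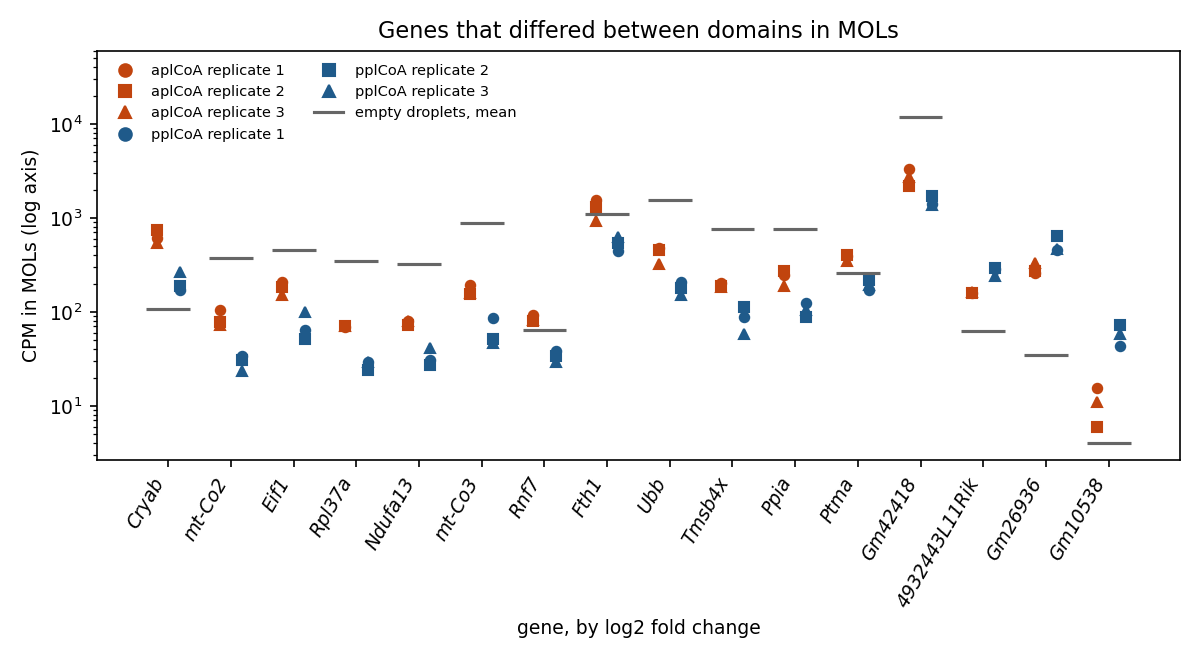
Level in MOLs, in CPM on a log axis, of the 16 genes that differed between domains, 1 point per replicate, ordered by log2 fold change; gray lines give the mean of empty droplets. The domains do not overlap in any of the 16 genes, and the gray line lies above the MOLs of both domains in genes such as Ubb, Ppia and mt-Co3, but below them in Cryab.

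Cryab, which encodes the small heat shock protein αB-crystallin, a chaperone abundant in oligodendrocytes, had the lowest p. It stood at 611, 744 and 542 CPM in the MOLs of aplCoA and at 169, 189 and 264 CPM in those of pplCoA. The domains did not overlap, and pplCoA replicate 3 was the nearest to aplCoA. The log2 fold change was 1.61 ± 0.198 (SE; edgeR adjusted p = 0.00493), and Cryab was the 1 gene called after leaving out each replicate in turn, with adjusted p from 0.000509 to 0.0330. In MOLs it lay 5.92-fold above NFOLs, and above empty droplets, which held 106 CPM. The gene lies at chr9:50751325-50756636 (mm10, plus strand), overlapping Hspb2 on the other strand.

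The 2 libraries of aplCoA replicate 1, which share a biological replicate, differed from each other in the same genes. Cryab stood at 275 CPM in library 1 and at 1128 CPM in library 2, a ratio of 4.10, while the highest pplCoA replicate was at 264 CPM. Fth1 stood at 854 and 2630 CPM, and Gm10538 at 25.3 CPM and at 0 of the 539897 MOL UMIs of library 2. In all 16 called genes library 2 differed from library 1 in the direction in which aplCoA differed from pplCoA, as in 58.2% of all genes tested, and in 7 of the 15 genes with over 3 counts in both libraries by more than the domains did on the log2 scale. Both libraries lay on the aplCoA side of every pplCoA replicate in all 16 genes. As these genes were called with the counts of both libraries, this was largely set by the choice of genes. For neither this count nor the 7 of 15 genes was the share over all genes computed. Mitochondrial transcripts were 0.0505% of MOL UMIs in library 1 and 0.127% in library 2.

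With library 1 as the replicate the log2 fold change of Cryab was 1.33 (edgeR adjusted p = 0.201), and with library 2 it was 1.94 (adjusted p = 0.0775). No gene was called with either library alone by edgeR, with 557 and 657 genes at an unadjusted p below 0.05. Without aplCoA replicate 1 altogether, 3 genes were called, and the log2 fold change of Cryab was 1.63 (adjusted p = 0.0191).

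Fth1, the heavy chain of the iron store ferritin, stood at 1553, 1298 and 937 CPM in aplCoA and at 443, 535 and 633 CPM in pplCoA (log2 fold change 1.20 ± 0.193, SE; adjusted p = 0.0274). Ubb, a polyubiquitin gene, stood at 483, 459 and 322 CPM against 207, 178 and 152 CPM (1.14 ± 0.186; adjusted p = 0.0274). Eif1, a translation initiation factor, had the largest rise after Cryab outside the 3 groups, with 206, 183 and 151 CPM against 63.3, 51.4 and 99.7 CPM (1.39 ± 0.229; adjusted p = 0.0274). None of them overlapped between domains, and aplCoA replicate 3 was the lowest of its domain.

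The other protein-coding genes outside the 3 groups had changes of 0.95 to 1.21. Rnf7, a RING subunit of cullin ubiquitin ligases, stood at 84.2 ± 7.34 CPM in aplCoA and 33.9 ± 4.36 CPM in pplCoA. Tmsb4x, which binds actin monomers, stood at 191 ± 9.46 CPM and 86.5 ± 27.3 CPM, Ppia, the peptidyl-prolyl isomerase cyclophilin A, at 236 ± 42.0 CPM and 106 ± 17.7 CPM, and Ptma, prothymosin alpha, at 382 ± 31.2 CPM and 193 ± 22.5 CPM. Gm42418, a noncoding transcript that overlaps an annotated ribosomal RNA on the opposite strand of chromosome 17, stood at 2751 ± 573 CPM and 1498 ± 189 CPM. Reads of such a transcript can come from ribosomal RNA, and the share that did was not measured.

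The 3 genes lower in aplCoA were all noncoding. Gm10538, annotated as antisense to Nfasc at chr1:132729355-132732826 (mm10, plus strand), stood at 15.3, 5.96 and 11.0 CPM in the MOLs of aplCoA and at 43.3, 72.0 and 58.6 CPM in those of pplCoA. It had the largest change of the 16, a log2 fold change of -2.23 ± 0.350 (SE; edgeR adjusted p = 0.0274), from low counts. Gm10538 had 36 UMIs in the MOLs of aplCoA and 72 in those of pplCoA. The detection filter accepted either domain, and Gm10538 was too rare in aplCoA, so it entered through pplCoA alone. Such a filter can favor genes that differ between domains. Gm10538 was also called with edgeR's own expression filter (edgeR adjusted p = 0.0418) and with no filter on genes (edgeR adjusted p = 1.84e-06). The former filter can likewise be passed through the replicates of 1 domain, so it does not settle this point. Of 21 alternatives, 13 kept the call of Gm10538 and 8 lost it. It was lost with thinned counts (edgeR adjusted p = 0.106) and without aplCoA replicate 2 (edgeR adjusted p = 0.116), for example. Nfasc itself stood at 974, 698 and 1180 CPM against 1181, 1389 and 1442 CPM, without overlap but also without a call (log2 fold change -0.54 ± 0.172; adjusted p = 0.182).

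Gm26936, a long noncoding transcript of 40852 bp whose span on chromosome 1 holds the opposite-strand Mir181a-1 and Mir181b-1, stood at 258, 271 and 335 CPM in aplCoA and at 457, 641 and 469 CPM in pplCoA (log2 fold change -0.91 ± 0.166; adjusted p = 0.0347). 4932443L11Rik, antisense to Evi5l on chromosome 8, had the tightest replicates, at 160, 158 and 162 CPM against 285, 291 and 240 CPM (-0.83 ± 0.148; adjusted p = 0.0305). All 3 lay above the empty droplets on average, Gm26936 with 34.4 CPM there.

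Among the groups set aside, the called genes were mt-Co2 and mt-Co3, which encode subunits of cytochrome c oxidase in the mitochondrial genome, the ribosomal protein gene Rpl37a, and Ndufa13 of complex I. Their log2 fold changes were 1.41, 1.24, 1.27 and 1.26. Mitochondrial transcripts made up 0.0804%, 0.0562% and 0.0623% of MOL UMIs in aplCoA and 0.0321%, 0.0247% and 0.0276% in pplCoA. The median log2 fold change was 1.26 over 8 mitochondrial, 0.78 over 75 ribosomal and 0.62 over 65 oxidative phosphorylation genes, beside -0.01 over all genes tested.

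Calls at an unadjusted p below 0.05 were far more numerous, at 682 genes (13.2%), of which 396 (7.68%) were higher and 286 (5.55%) lower in aplCoA, and 936 genes (18.2%) had no overlap between domains. The lists below are described against these backgrounds. Of 27 myelin protein genes tested, Cryab alone was called, 10 were higher and 1 lower at an unadjusted p below 0.05, and the median log2 fold change was 0.21. These genes include Mog and Mobp, which defined the gate, and the values without them were not computed. Mal stood at 1302, 1282 and 1096 CPM in aplCoA and at 643, 888 and 956 CPM in pplCoA (log2 fold change 0.52; adjusted p = 0.165). Mbp had the opposite sign, at 4740.4, 4550.5 and 5334 CPM against 5629, 6504 and 5845 CPM (-0.36; adjusted p = 0.145). Neither gene overlapped between domains, and neither passed the adjusted threshold.

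**Figure D5:**
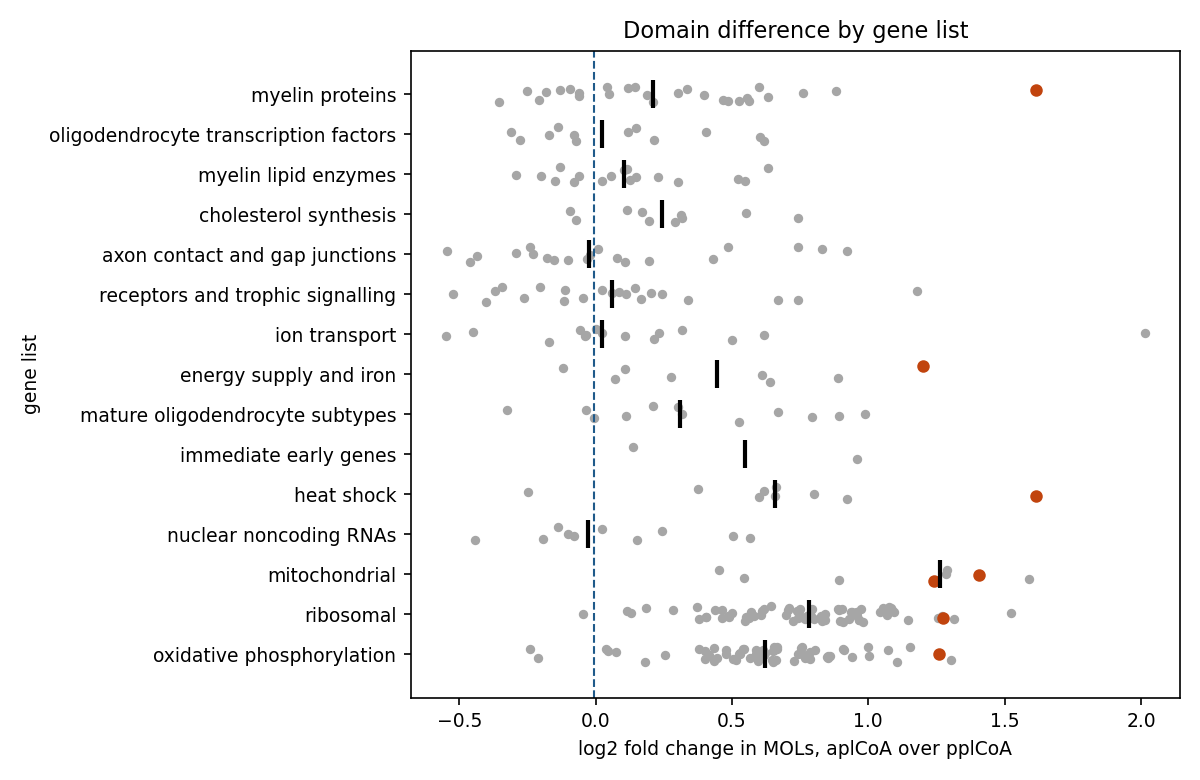
Log2 fold change of aplCoA over pplCoA in MOLs for each tested gene of each list; orange points have an adjusted p below 0.05, black bars give the median of the list and the dashed line the median of all genes tested. Medians of the heat shock, mitochondrial, ribosomal and oxidative phosphorylation rows lie between 0.62 and 1.26, and those of transcription factors, axon contact, ion transport and nuclear noncoding RNAs lie near the dashed line.

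Of 9 heat shock genes tested, Cryab was called, and 6 with Cryab among them had an unadjusted p below 0.05, all higher in aplCoA, with a median of 0.66. Hspa8, the constitutive member of the 70-kDa chaperones, stood at 397, 364 and 218 CPM against 163, 175 and 164 CPM (log2 fold change 0.92; adjusted p = 0.0874), and Hsp90aa1 at 497, 516 and 477 CPM against 278, 295 and 352 CPM (0.66; adjusted p = 0.0874). Both were higher in empty droplets than in MOLs, at 872 and 751 CPM.

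Of 8 genes of energy supply and iron, Fth1 was called and the median was 0.44. Ftl1, the ferritin light chain, had the same sign, at 89.9 ± 12.0 CPM and 50.4 ± 18.3 CPM (adjusted p = 0.142). Trf stood at 1024 ± 148 CPM and 806 ± 129 CPM (adjusted p = 0.445), with overlapping replicates. Of the 12 subtype genes tested none was called and 6 had an unadjusted p below 0.05, all higher in aplCoA. Apod came closest, at 411, 623 and 522 CPM against 299, 233 and 264 CPM (log2 fold change 0.89; adjusted p = 0.0504), and Ptgds stood at 5007, 5789 and 5359 CPM against 2561, 2311 and 4039 CPM (0.79; adjusted p = 0.0874).

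Lists without any called gene by the same test were the transcription factors, with 12 tested, 1 higher and 2 lower at an unadjusted p below 0.05 and a median of 0.02, myelin lipid enzymes (17 tested, 3 higher, median 0.11), cholesterol synthesis (10 tested, 2 higher, median 0.24), axon contact and gap junctions (20 tested, 4 higher and 3 lower, median -0.02), receptors and trophic signalling (21 tested, 3 higher and 3 lower, median 0.06), ion transport (15 tested, 3 higher, median 0.02), immediate early genes (2 tested, 1 higher, median 0.55) and nuclear noncoding RNAs (10 tested, 1 higher and 1 lower, median -0.03). Sox10 stood at 252 ± 37.6 CPM in aplCoA and 259 ± 55.2 CPM in pplCoA, and Myrf at 135 ± 7.14 CPM and 146 ± 19.7 CPM. Scd2, a stearoyl-CoA desaturase gene, stood at 773, 894 and 607 CPM against 456, 549 and 498 CPM (log2 fold change 0.55; adjusted p = 0.146). Among receptors, Erbb4, a neuregulin receptor gene, stood at 2068, 2048 and 2434 CPM against 2644, 2966 and 2521 CPM (-0.37; adjusted p = 0.155).

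Markers of some other cell types moved with the domain in the MOLs. The summed level of 10 astrocyte markers was 494, 678 and 887 CPM in the MOLs of aplCoA and 489, 178 and 117 CPM in those of pplCoA, with all 10 higher in aplCoA on average. All 10 neuronal markers were higher on average as well, with sums of 1564, 1626 and 1044 CPM against 878, 535 and 1589 CPM, which overlapped, and so were 8 of 10 meningeal, 6 of 8 glutamatergic and 5 of 7 detected endothelial and mural markers. Fewer were higher in aplCoA among the others, with 2 of 10 microglial, 4 of 9 OPC, 3 of 9 NFOL and 3 of 8 GABAergic markers. By fitted log2 fold change, 2527 of all 5157 genes tested were higher in aplCoA, but many of the markers were too rare to be tested. Endothelial and mural sums were 5.86 to 21.0 CPM over the replicates, so their signs rest on few UMIs. The sum of 8 glutamatergic markers outside the rule was 179, 152 and 129 CPM against 128, 85.7 and 93.8 CPM. For GABAergic markers the sum was 2076 to 2463 CPM against 2562 to 3004 CPM, but Erbb4 supplied nearly all of it, and the other 7 genes summed to 28.3 to 78.0 CPM and 37.7 to 60.2 CPM, with overlap. Sums over 10 microglial, 9 OPC, 9 NFOL, 10 endothelial and mural and 10 meningeal markers overlapped between domains, and Rgs5, Abcc9 and Acta2 of mural cells were at 0. In empty droplets (barcodes with under 100 UMIs) the meningeal sum alone did not overlap, at 514, 394 and 392 CPM in aplCoA and 273, 241 and 244 CPM in pplCoA. The part of other cells or of free RNA in the calls was not tested.

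Of the 13 genes higher in aplCoA, 11 were higher in empty droplets than in MOLs, the exceptions being Cryab and Ptma, and none of the 3 lower genes were. Ubb, for example, had 1561 CPM in empty droplets and Gm42418 had 11889 CPM. Over all 5157 genes tested, 48.5% were higher in empty droplets. Between domains the empty droplets overlapped in all but mt-Co2 of the 16 genes, against 5.45% of all genes without overlap. The means of the empty droplets had the direction of MOLs in 15 of the 16 genes, all but Tmsb4x, and in 58.4% of all genes. In all other nuclei summed, the direction of MOLs without overlap was found in 15 of the 16, all but Tmsb4x, and in 28.3% of all genes. Cryab stood there at 8.41 CPM on average and Gm10538 at 5.50 CPM, with log2 ratios of aplCoA over pplCoA of 0.77 and -1.55.

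Gene length moved with the direction of change as well. Of the 16 called genes, 14 were under 10000 bp long in the annotation, against 11.9% of the 5155 tested genes with a length. Among tested genes outside the 3 groups, the median log2 fold change was 0.32 in the 492 genes under 10000 bp, 0.07 in 1150 genes from 10000 to 30000 bp, -0.05 in 2040 genes from 30000 to 100000 bp, -0.09 in 974 genes from 100000 to 300000 bp and -0.07 in the 351 longer genes. The median was also 0.34 in 871 genes that were at least 2-fold higher in empty droplets than in MOLs, and -0.15 in 1049 genes that were at least 2-fold higher in MOLs. These bins were set after the values were seen.

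To ask whether any difference was particular to MOLs, the change between domains was compared with that in OPCs and in astrocytes of the same replicates. No gene (0%) of 4536 passed against OPCs and none (0%) of 4206 against astrocytes by the edgeR test of the class by domain term, with 266 and 244 genes at an unadjusted p below 0.05. Within OPCs alone 163 genes (3.59%) were called, and within astrocytes 1 (0.0238%). Of the 16 genes called in MOLs, 13 could be tested against OPCs, all with the same sign there, against 65.3% of all genes tested, and 9 of them were called in OPCs too. For 4932443L11Rik the log2 fold change was -0.83 in MOLs and -0.80 in OPCs, and for Ubb it was 1.14 and 0.79.

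Among the named genes with the lowest p against OPCs were Eif1, Rpl37a, Scd2 and Fth1, each with an adjusted p of 0.797. Eif1 changed by 1.39 in MOLs and 0.54 in OPCs, a difference of 0.85 ± 0.204 (SE, log2). Against astrocytes they were Trpm3, Grik2, Slc8a1, Glul and Eif1, each with an adjusted p of 0.801. Trpm3, a cation channel gene with 27194 CPM in vascular leptomeningeal cells and 1614 CPM in empty droplets, stood in MOLs at 145, 529 and 644 CPM in aplCoA and at 137, 41.1 and 117 CPM in pplCoA (log2 fold change 2.01; adjusted p = 0.0874), against -0.09 in astrocytes. Cryab, Rnf7 and Gm10538 were too rare in OPCs and astrocytes to be tested there.

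All 16 genes could be tested against NFOLs, the stage before MOLs in the lineage, which held 45 to 75 nuclei per replicate. This comparison was chosen after the data were seen, and its differences come from a joint fit of both classes, so they can depart from the gap between the separate log2 fold changes. No gene (0%) of 4921 passed by the same edgeR test, with 263 at an unadjusted p below 0.05, and within NFOLs alone none of the 4921 genes (0%) was called. The sign was that of MOLs in 15 of the 16 genes, against 61.0% of all genes tested, all but Rpl37a, which changed by 1.27 in MOLs and -0.02 in NFOLs (difference 1.24 ± 0.378, SE, log2; adjusted p = 0.896). Cryab changed by 1.61 in MOLs and 0.73 in NFOLs (difference 0.82 ± 0.316; adjusted p = 0.896), Gm10538 by -2.23 and -1.70, and Rnf7 by 1.21 and 1.40, with a joint difference of -0.18 ± 0.604.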

How the data were processed

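Single-nucleus RNA sequencing libraries (10x 3' v3.1) were aligned by the authors to mm10 with intronic reads included (Cell Ranger 5.0.0 per the submitters' processing notes), and the authors deposited unfiltered counts of UMIs per gene and barcode for 7 libraries, without normalization. Symbols were not unique for 78 rows, which kept their gene ID. Here, barcodes were kept and MOLs gated as stated in the report. Glial classes were gated on Enpp6 (NFOLs), Pdgfra (OPCs), Aqp4 and Gja1 (astrocytes), and Csf1r, P2ry12 and Cx3cr1 (microglia). The others were gated on Slc17a7 and Slc17a6 (glutamatergic), Gad1 and Gad2 (GABAergic), and Slc6a13, Dcn and Col1a2 (vascular leptomeningeal cells). No doublet caller was run for the main values, and Scrublet scores were an alternative. The MOL gate limited Enpp6, Pdgfra and the 4 neuronal genes only. It did not limit genes of astrocytes, microglia, meningeal or vascular cells, so doublets of MOLs with those could pass. Scrublet removed 16, 4, 9 and 26 MOLs from the aplCoA libraries and 11, 1 and 2 from the pplCoA libraries. The members and gene lists were chosen with earlier results of these data known.

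MOL counts were summed per replicate, and edgeR 4.0.16 in R 4.3.3 compared them after TMM scaling (quasi-likelihood test, Benjamini-Hochberg adjustment), with DESeq2 1.42.0 as an alternative. Single values were compared by exact permutation over 3 and 3 replicates. CPM values in the text are a gene's UMIs scaled to 1e6 UMIs of a class in a replicate, and the SE belongs to the fitted log2 fold change. Python 3.11.15, scanpy 1.11.5, numpy 2.4.6, scipy 1.17.1, pandas 2.3.3 and matplotlib 3.10.9 were used. The test was tested on simulated counts for the 5157 genes: it called 100% of genes changed by 2 and 72% of genes changed by 1 on the log2 scale. The simulation gave all genes the same fixed spread between replicates, which was not estimated from the pools. These shares are therefore not the power of the real comparison. Positions are from GENCODE vM21 (mm10), by gene ID, for 5155 of the 5157 genes. Genes named in the text are all called genes outside the 3 groups with at least 20 CPM (up to 12 in each direction), the 3 most changed called genes of each of the 3 groups, and called and up to 6 further members of each list by level. For the other classes they are the 20 genes with the largest ratio, and for variation the 15 highest. Alternatives concerned the test, scaling, gene filters, thinning, the gates, doublets and each library or replicate. Not every gene that these rules name is reported here.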

Additional observations from a re-analysis of the deposited data

How the results depend on the processing

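The count of genes that differed between domains depended strongly on the processing. Against 16 called genes, of which 9 higher and 3 lower in aplCoA lay outside the 3 groups, the likelihood ratio test that the study's methods name called 134 (75 and 27), no filter on genes 145 (90 and 33) and edgeR's own expression filter 5 (4 and 1). DESeq2 called 20 (15 and 4). Thinning the counts to the lowest total called 12 (10 and 0). The rule of adjusted p below 0.01 and 1.5-fold left 1 (1 and 0) by the quasi-likelihood test and, added after the data were seen, 45 (26 and 9) by the likelihood ratio test. Removing Scrublet doublets gave 99 (51 and 23), a floor of 500 genes 39 (21 and 10), at least 8 UMIs of Mog and Mobp 49 (25 and 19) and 0 UMIs of the neuronal genes 57 (38 and 9). Library 1 or library 2 of aplCoA replicate 1 alone called 0 (0 and 0), with 557 and 657 genes at an unadjusted p below 0.05. Leaving out a replicate gave between 1 and 80 genes, with 1 to 46 higher and 0 to 15 lower outside the 3 groups: 80 without aplCoA replicate 3, 1 without pplCoA replicate 2, 2 without aplCoA replicate 2, 3 without aplCoA replicate 1 and 4 without pplCoA replicate 3. The share of calls that were higher was 13 of 16 in the report and 30 of 49 with at least 8 UMIs of Mog and Mobp. The cause of these shifts was not tested.

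With the replicate number as a replicate block, 2 genes were called (2 and 0 outside the 3 groups). Deviations of same-numbered replicates correlated by 0.06, -0.11 and -0.02, and the numbers were not taken to pair the samples. With sums as small as 170579 UMIs, counting error can keep such correlations low, so they cannot exclude a pairing. Scaling by RLE and scaling without the 3 groups kept the counts within 1.5 times. Over 336 refits of the 16 genes the direction reversed in 0, and the call remained in 192. The refits used mostly the same counts, and the genes were chosen for their difference there, so a reversal was unlikely from the start.

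Between 0 and 4 genes differed in their change between MOLs and OPCs, and between 0 and 3 between MOLs and astrocytes, when a replicate was left out, each highest count being without pplCoA replicate 1. The higher share of MOLs in aplCoA, of nuclei and of the lineage, and their higher depth kept their direction under all 13 alternatives, from 0.720 to 1.73, from 11.8 to 20.2 percentage points and from 77.0 to 350.2 UMIs. Without thinning, the differences of Serpinb1a, Il33, Slc5a11 and Plin3 widened to 9.30, 11.9, -2.85 and 4.19 percentage points, and that of Ptgds narrowed from 4.39 to 1.26. Those of Hapln2, Nkain1, Dpy19l1 and Rras2, whose domains overlapped, widened to 8.03, 4.31, 5.19 and -1.39 points. Leaving out 1 replicate turned the small differences of 3 subtype genes, whose domains overlapped: Nkain1, at 1.23 points, ranged from -0.229 (without aplCoA replicate 2; -0.221 without pplCoA replicate 3) to 2.64, Rras2, at -0.365, from -0.904 to 0.516 (without pplCoA replicate 3), and Dpy19l1, at 1.14, from -0.0884 (without pplCoA replicate 1) to 2.06.

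Depth limits these values: pplCoA replicate 3 rests on 46 MOLs, with 170579 UMIs, and pplCoA replicate 2 on 75.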
